A study of Mus musculus with 2 samples.

Results

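Ccl2, Ccl7, Ccl8, Ccl12, Ccr2, Cx3cl1 and Cx3cr1 make up 2 chemokine systems that recruit and position monocytes, and these 7 genes, of 32285 counted, were followed across the cell types of the injured mouse kidney. The genes were chosen by name. Each was counted in droplets with no fewer than 500 UMIs and 200 detected genes and no more than 50% mitochondrial UMIs, less predicted doublets, where a UMI is a tag that marks 1 captured mRNA molecule. 2 single-cell libraries were compared, both from kidneys taken at day 14 after ischaemia-reperfusion of 1 kidney by clamping of its renal artery, and both from mice given 4 tamoxifen injections. The control mice were Cre-. The other mice carried Cdh5-CreERT2, a tamoxifen-activated recombinase driven by the promoter of the endothelial gene Cdh5, together with Phd3f/+, 1 floxed allele of PHD3 (gene Egln3, an oxygen-dependent prolyl hydroxylase), and are called haplodeficient below. Whether the Cre- mice carried the floxed allele, and how many mice entered each library, is not given in the sources used here. With 1 library per group there is no test between genotypes. Each interval below is a 95% interval that covers counting error only, and differences between animals, between preparations and between genotypes cannot be told apart.

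CCL2, CCL7, CCL8 and CCL12 are small secreted CC chemokines. CCL2, CCL7 and CCL12 bind CCR2, a receptor that classical Ly6C-high monocytes need to leave the bone marrow and enter inflamed tissue, where many become macrophages. CCL8 belongs to the same family of monocyte chemoattractant proteins, but mouse CCL8 is known to act through CCR8. CX3CL1 (fractalkine) is made as a membrane-bound protein on endothelium and epithelium. It holds cells that carry CX3CR1, such as patrolling monocytes and resident kidney macrophages, and is released when the proteases ADAM10 and ADAM17 cut it. In the injured kidney both systems are known for bringing monocytes in and for keeping mononuclear phagocytes in place.

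The 4 CC ligand genes are neighbours. In the GENCODE annotation of GRCm38 they are protein-coding genes on the plus strand within 81.2 kb of chromosome 11: Ccl2 (ENSMUSG00000035385) at chr11:82035571-82037453, Ccl7 (ENSMUSG00000035373) at chr11:82045712-82047525, Ccl12 (ENSMUSG00000035352) at chr11:82101845-82103400 and Ccl8 (ENSMUSG00000009185) at chr11:82115185-82116799. Ccr2 (ENSMUSG00000049103) lies at chr9:124101950-124113557 on the plus strand and Cx3cr1 (ENSMUSG00000052336) at chr9:119901616-120069879 on the minus strand. Cx3cl1 (ENSMUSG00000031778) lies at chr8:94772009-94782427 on the plus strand. The annotated transcripts of the 4 ligands share 0 stretches of 25 bases in any of their 6 pairs, so reads of that length from one ligand do not match another exactly. Of the 7 genes, 5 had a promoter in the RefSeq table (GRCm38.p6). The 250 bases upstream of the start are shown for Ccl8 and Ccl12, the pair of ligands counted mostly in macrophage-like cells below, for which the RefSeq and GENCODE starts are the same. The RefSeq windows of Ccr2, Cx3cl1 and Cx3cr1 lie partly or wholly inside the gene as GENCODE annotates it and are not described. Capitals mark exact matches, on either strand, to GAGGAA (the core bound by PU.1, the lineage factor of macrophages, which reads as TTCCTC when it lies on the minus strand) and to the TATA box letters TATAAA.
Ccl8, chr11:82114935-82115184, plus strand: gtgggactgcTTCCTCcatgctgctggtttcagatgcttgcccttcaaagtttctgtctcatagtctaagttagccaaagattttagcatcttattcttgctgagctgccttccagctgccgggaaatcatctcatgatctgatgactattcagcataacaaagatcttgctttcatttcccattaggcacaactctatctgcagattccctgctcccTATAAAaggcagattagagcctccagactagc
Ccl12, chr11:82101595-82101844, plus strand: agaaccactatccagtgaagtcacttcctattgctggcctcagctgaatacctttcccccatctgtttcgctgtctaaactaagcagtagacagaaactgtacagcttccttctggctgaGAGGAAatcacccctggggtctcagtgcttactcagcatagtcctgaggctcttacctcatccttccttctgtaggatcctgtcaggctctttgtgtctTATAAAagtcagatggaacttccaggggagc
Counted back from the start, TATAAA lay at -32 to -27 in Ccl8 and at -31 to -26 in Ccl12. GAGGAA lay at -240 to -235 on the minus strand of Ccl8 and at -130 to -125 of Ccl12. GAGGAA is common, present in 23.3% of 32851 mouse promoters of the same length, and TATAAA was in 12.4%. Letters of AP-1 (TGANTCA, in 6.75% of promoters), STAT (TTCNNNGAA, in 7.02%) and the NF-kB consensus (in 3.90%) were searched on both strands and were not in these 2 windows. A match is a description of letters and is not evidence of binding.

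The control library held 134190236 UMIs and the haplodeficient library 114668145, and 8737 and 9222 cells were kept. The median cell had 8796 UMIs with 10.1% mitochondrial UMIs in the control and 5482.5 UMIs with 2.69% in the haplodeficient library. The libraries shared 23 barcodes among kept cells. Cells fell into 37 clusters, made without the 7 genes and without the listed genes of their pathways. A cluster was named "X-like" where at least 3 listed markers of X stood higher in it than in other cells. 5 clusters stayed unnamed (2, 15, 19, 29 and 31). The cell makeup differed between the libraries: 769 and 1344 cells were macrophage-like, 52 and 374 monocyte-like, 179 and 1038 T cell-like, and 2982 and 362 proximal tubule-like. In bulk totals over such mixtures, more cells of a type and more RNA per cell cannot be told apart, so levels are given per cell class, in CPM, which scale a gene's UMIs to the same UMI total in every class and library. Egln3 in endothelial-like cells stood at 23.5 CPM (17.8 to 30.3, 58 UMIs) in the control and at 21.2 CPM (17.4 to 25.5, 111 UMIs) in the haplodeficient library. The intervals overlap. 3' counts need not report a deleted exon, and the position of the floxed part is not given in the sources used here, so this level does not check the genotype.

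Macrophage-like cells held the highest levels of Ccl7, Ccl8 and Ccl12 in both libraries, and shared the highest level of Ccl2 with injured tubule-like cells, which carry markers such as Havcr1 and Vcam1. In the haplodeficient library Ccl2, Ccl7 and Ccl12 were higher per macrophage-like UMI, by 1.54 to 1.89 times, while Ccl8 was level. Ccr2 was highest in the class named dendritic cell-like, above all in its subclusters rich in macrophage genes, and was lower in haplodeficient macrophage-like cells. The classical-like subcluster of monocyte-like cells, with few control cells, also held Ccr2 at a high level. Cx3cl1 was highest in glomerular endothelial-like and fibroblast-like cells, most of its UMIs lay in tubule classes from the descending thin limb to the collecting duct, and Cx3cr1 from monocyte-like and macrophage-like cells.

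**Figure D1:**
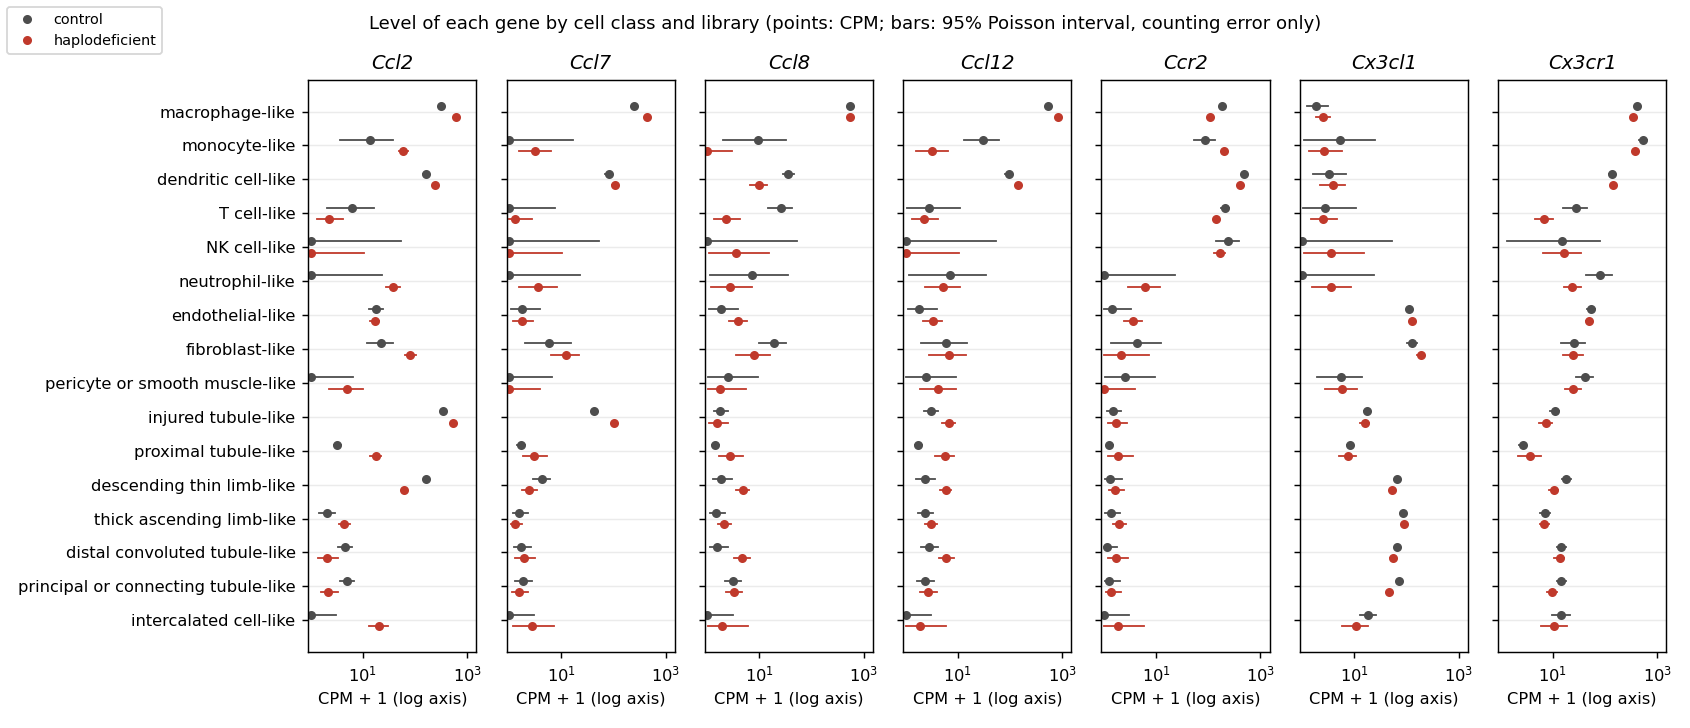
Level of each of the 7 genes (x axis, CPM + 1 on a log axis) in 16 cell classes (y axis) of the control (grey) and haplodeficient (red) libraries, with 95% Poisson intervals that cover counting error only. Ccl8 and Ccl12 stand high in macrophage-like cells, Ccl2 in macrophage-like and injured tubule-like cells, and Cx3cl1 in endothelial-like and fibroblast-like cells and in the descending thin limb-like, thick ascending limb-like and distal tubule classes.

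Ccl2, the main CCR2 ligand of inflamed tissue, stood at 319.5 CPM (303.7 to 335.8, from 1546 UMIs) in control macrophage-like cells and at 605.4 CPM (590.2 to 620.8, from 6041 UMIs) in haplodeficient ones. The intervals do not overlap, and the haplodeficient level was 1.89 times the control level (1.79 to 2.01). In injured tubule-like cells Ccl2 stood at 340.0 CPM (328.8 to 351.5, 3479 UMIs) in the control and 521.5 CPM (503.2 to 540.2, 3078 UMIs) in the haplodeficient library, a ratio of 1.53 (1.46 to 1.61). Here too the intervals lie apart. The class joined 2 clusters that differed in direction. Cluster 8 stood at 339 and 587 CPM. Cluster 32, led by division genes such as Top2a, stood at 352 and 146 CPM in 39 control and 29 haplodeficient cells. Dendritic cell-like cells gave 159 and 237 CPM, a ratio of 1.49 (1.29 to 1.72), and the log2 value of 0.56 ranged from 0.41 to 1.35 over the alternative settings. These 3 classes were ordered differently in the 2 libraries: injured tubule-like cells stood above macrophage-like cells in the control with overlapping intervals, and below them in the haplodeficient library with intervals apart.

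Which cells held most of the Ccl2 message therefore differed between the libraries. Macrophage-like cells held 22.9% of the Ccl2 UMIs of all kept control cells (21.9 to 23.9%) and 53.2% of those of haplodeficient cells (52.3 to 54.1%). Injured tubule-like cells held 51.6% and 27.1%. This share follows both the level per cell and the number of cells, with 564 control and 297 haplodeficient injured tubule-like cells, and it also follows depth: with every cell thinned to 1000 UMIs, so that deep tubule cells no longer weigh more, macrophage-like cells held 53.5% of control and 72.1% of haplodeficient Ccl2 UMIs.

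Within injured tubule-like cells Ccl2 was carried by a minority. It was detected in 188 control cells (33.3%) and 76 haplodeficient cells (25.6%). Cells with at least 10 Ccl2 UMIs numbered 69 and 38, yet they held 87.5% and 96.3% of the class's Ccl2 UMIs, and the single highest cells held 258 and 349 UMIs. Macrophage RNA was measured in the same cells: the 10 macrophage markers summed to 28.8 CPM in control and 53.5 CPM in haplodeficient injured tubule-like cells, against 14743 and 18566 CPM in macrophage-like cells. Cells without a UMI of the C1q genes, which mark macrophages, held 85.8% and 68.0% of the injured tubule-like Ccl2 UMIs, and cells without any macrophage-marker UMI held 55.0% and 36.3%. Most of the Ccl2 of this class was thus counted in cells with no C1q message, but in the haplodeficient library most was in cells with a macrophage-marker UMI. A C1q UMI was found in 12.2% and 22.4% of cells with Ccl2, against 10.9% and 18.6% of those without. The part of macrophage RNA in this result was not tested.

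A descending thin limb-like class went the other way. Its Ccl2 stood at 157.5 CPM (923 UMIs) in the control and 60.1 CPM (539 UMIs) in the haplodeficient library, a ratio of 0.381 (0.342 to 0.424). These values rest on few cells: Ccl2 was detected in 36 control and 43 haplodeficient cells, and the 3 highest cells held 76.7% and 57.7% of the UMIs. With every cell thinned to 1000 UMIs the log2 ratio changed from -1.32 to 0.38, so the direction depends on how deep cells are weighted. Descending thin limb-like cells without any macrophage-marker UMI held 10.2% of the control and 28.4% of the haplodeficient Ccl2 UMIs of the class. Those without a C1q UMI held 56.99% and 31.4%. The part of macrophage RNA in the Ccl2 of this class was not tested. Fibroblast-like cells had 13 Ccl2 UMIs in the control (21.1 CPM) and 71 with haplodeficiency (80.4 CPM), a ratio of 3.82 (2.10 to 7.52). That ratio comes from 6 and 11 cells with Ccl2, and the log2 ratio changed from 1.71 to -0.52 when predicted doublets were kept. Among the haplodeficient fibroblast-like cells with Ccl2, 54.5% also had a C1q UMI, against 17.3% of those without Ccl2, and the part of macrophage RNA in this result was not tested.

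Endothelial cells, in which the Cre driver acts, were a minor source. Ccl2 stood at 17.0 CPM in control and 15.8 CPM in haplodeficient endothelial-like cells. 6 and 12 cells carried it, and 3 cells held 92.9% and 89.2% of the UMIs. Any of the 4 CC ligands was detected in 3.28% and 4.17% of endothelial-like cells, compared with 67.8% and 71.1% of macrophage-like cells. Cluster 19, an unnamed cluster led by Tagln, Tnc and Cdh11, held Ccl2 at 307 CPM in the control and 88.6 CPM in the haplodeficient library. There 3 cells held 80.2% of the 258 control UMIs and 44.0% of the 307 haplodeficient ones, and without the highest cell of each library the levels were 149 and 65.8 CPM.

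**Figure D2:**
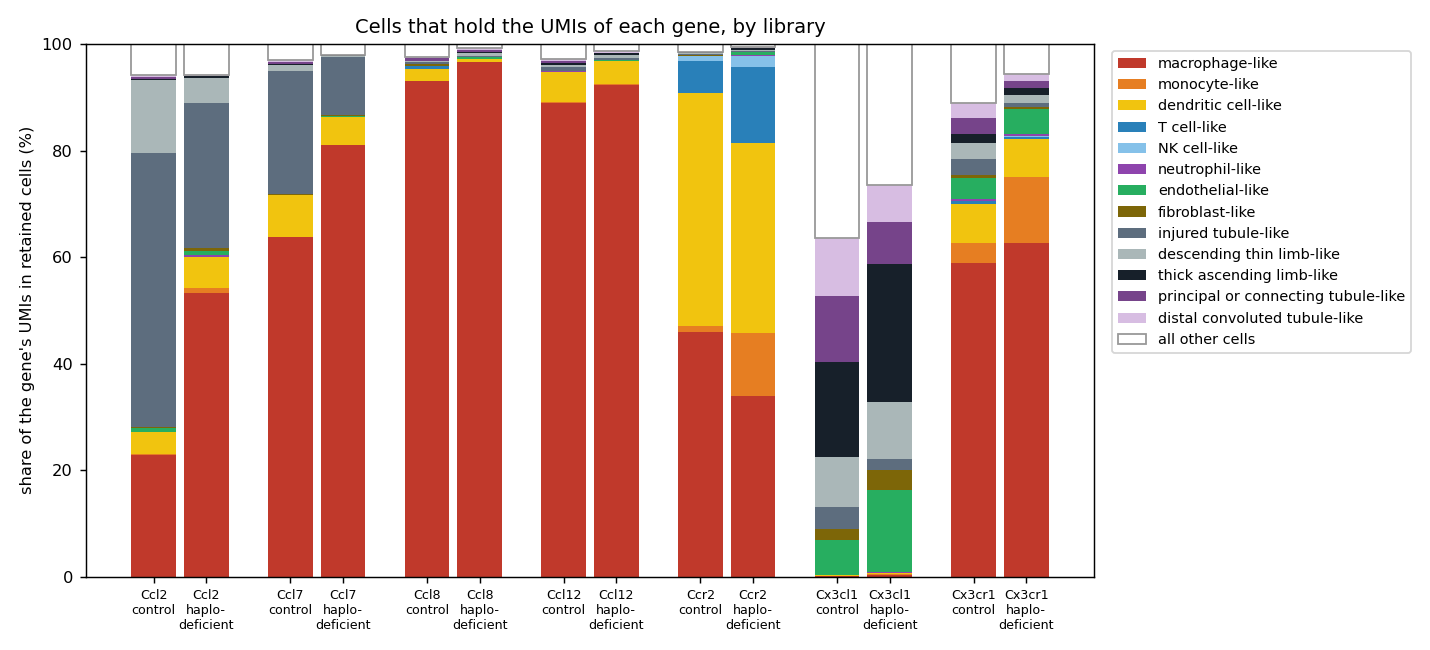
Share of each gene's UMIs over all kept cells (y axis, percent) by the cell class that held them (colours), 1 bar for each gene and library. Macrophage-like cells hold 93.0% and 96.7% of Ccl8 in control and haplodeficient cells but 22.9% and 53.2% of Ccl2, and the white part of the Cx3cl1 bars includes unnamed clusters.

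Ccl7, a ligand of CCR2 and of other CC receptors, stood at 243.8 CPM (1180 UMIs) in control and 448.3 CPM (4474 UMIs) in haplodeficient macrophage-like cells, a ratio of 1.84 (1.72 to 1.96). Macrophage-like cells held 63.9% of its control UMIs and 80.9% of its haplodeficient UMIs. In injured tubule-like cells Ccl7 was 41.8 CPM (428 UMIs) and 102.3 CPM (604 UMIs), a ratio of 2.45 (2.16 to 2.78), with 3 cells holding 34.1% and 65.6% of those UMIs. Without the single highest cell of each library the log2 ratio was 0.89 in place of 1.2, which is under 2-fold. Dendritic cell-like cells gave 80.7 and 105.1 CPM, a ratio of 1.30 (1.06 to 1.60) whose log2 value of 0.36 ranged from -0.68 with thinned cells to 1.45 with the 7 genes in the clustering.

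Ccl8 and Ccl12 were the ligands most tied to macrophage-like cells. Ccl8 stood at 547.6 CPM (2650 UMIs) in the control and 537.1 CPM (5360 UMIs) in the haplodeficient library, a ratio of 0.981 (0.936 to 1.03), and macrophage-like cells held 93.0% and 96.7% of its UMIs. Those 2 levels differ by less than counting error. Ccl12, a mouse CCR2 ligand closely related to Ccl2, stood at 541.6 CPM (2621 UMIs) and 834.4 CPM (8327 UMIs), a ratio of 1.54 (1.47 to 1.61), with 88.9% and 92.4% of its UMIs in macrophage-like cells. In dendritic cell-like cells Ccl12 was 93.7 and 142 CPM, a ratio of 1.52 (1.26 to 1.83), and the log2 value of 0.57 ranged from -1.85 with predicted doublets kept to 2.00 with a class from each cell alone. Ccl8 in the same class rested on 62 and 24 UMIs.

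Free RNA, read from barcodes of 1 to 100 UMIs, carried all 4 ligands. It held Ccl2 at 53.3 CPM in the control and 120.0 CPM in the haplodeficient library, beside 62.7 and 121 CPM over all kept cells. Ccl8 stood at 23.7 and 125.1 CPM in free RNA and at 26.5 and 59.1 CPM over kept cells. Classes that should lack the ligands set the background per cell. After thinning to 1000 UMIs, Ccl2 was detected in 20.8% of control and 29.7% of haplodeficient macrophage-like cells (40.6% and 47.7% before thinning), compared with 0% and 0.196% of T cell-like cells (1.12% and 0.289% before thinning), where 0 of 175 cells allows a share of up to 1.71%. Median depth was 4769 and 5371.5 UMIs in macrophage-like cells and 2709 and 2589 UMIs in T cell-like cells. Ccl12 was detected in 30.5% and 35.7% of thinned macrophage-like cells and in 0% and 0.098% of T cell-like cells (46.8% and 53.1%, against 0.559% and 0.289%, before thinning). Both ligands thus stood far above the T cell-like background in macrophage-like cells of either library.

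The CC ligands were uneven among macrophage-like cells. Clustering that class again, without the 7 genes, gave 7 subclusters, and subcluster 0, led by Rgl1 and the mannose receptor gene Mrc1 besides the ligands themselves, held the highest Ccl2, Ccl7 and Ccl12. In subcluster 0 Ccl2 stood at 744 CPM in the control and 1489 CPM in the haplodeficient library, a ratio of 2.00 (1.86 to 2.15). Ccl7 stood at 712 and 1523 CPM (2.14, 1.99 to 2.30), and Ccl12 at 1325 and 2445 CPM (1.84, 1.75 to 1.95). Ccl8 went slightly the other way there, at 1463 and 1336 CPM (0.913, 0.862 to 0.967).

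Ccl8 was instead higher in other haplodeficient subclusters. In subcluster 2, led by Lifr and Abca9, Ccl8 was 453 CPM in the control and 2018 CPM in the haplodeficient library, a ratio of 4.45 (3.91 to 5.08). In the Gpnmb-like subcluster 1, whose genes are those of lipid-laden macrophages, Ccl8 was 55.3 and 185 CPM (3.35, 2.72 to 4.17) and Ccl12 41.6 and 171 CPM (4.12, 3.24 to 5.30). The level Ccl8 over the whole class thus hid subclusters in which it was higher and 1 large subcluster in which it was lower. Of subclusters 0, 1 and 2, the Gpnmb-like one was the lowest for each of the 4 ligands in both libraries.

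Subcluster 0 held 1003 of the 1180 control and 3131 of the 4474 haplodeficient Ccl7 UMIs of macrophage-like cells. In subcluster 4, led by the interferon-induced genes Ifit3 and Cxcl10, it was 32.0 CPM (9 UMIs) in the control and 468 CPM (283 UMIs) in the haplodeficient library. In subcluster 5, led by the division gene Top2a, it was 8.10 CPM (4 UMIs) and 360 CPM (435 UMIs), and Ccl2 was 164 and 905 CPM, a ratio of 5.51 (4.4 to 7.0). These subclusters held 48 and 93 cells and 35 and 76 cells.

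The macrophage-like makeup itself differed, with subcluster 0 at 39.7% of control and 31.9% of haplodeficient macrophage-like cells and the Gpnmb-like subcluster, low in ligands, at 18.9% and 29.5%. At the control makeup of subclusters the haplodeficient to control ratio was 2.23 for Ccl2, 2.38 for Ccl7, 2.02 for Ccl12 and 1.39 for Ccl8. The change of makeup alone, at control levels, gave ratios of 0.826, 0.739, 0.727 and 0.726. The class averages given above are therefore below the ratios at equal makeup for each of the 4 ligands, and only for Ccl8 did the adjustment change the direction.

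**Figure D3:**
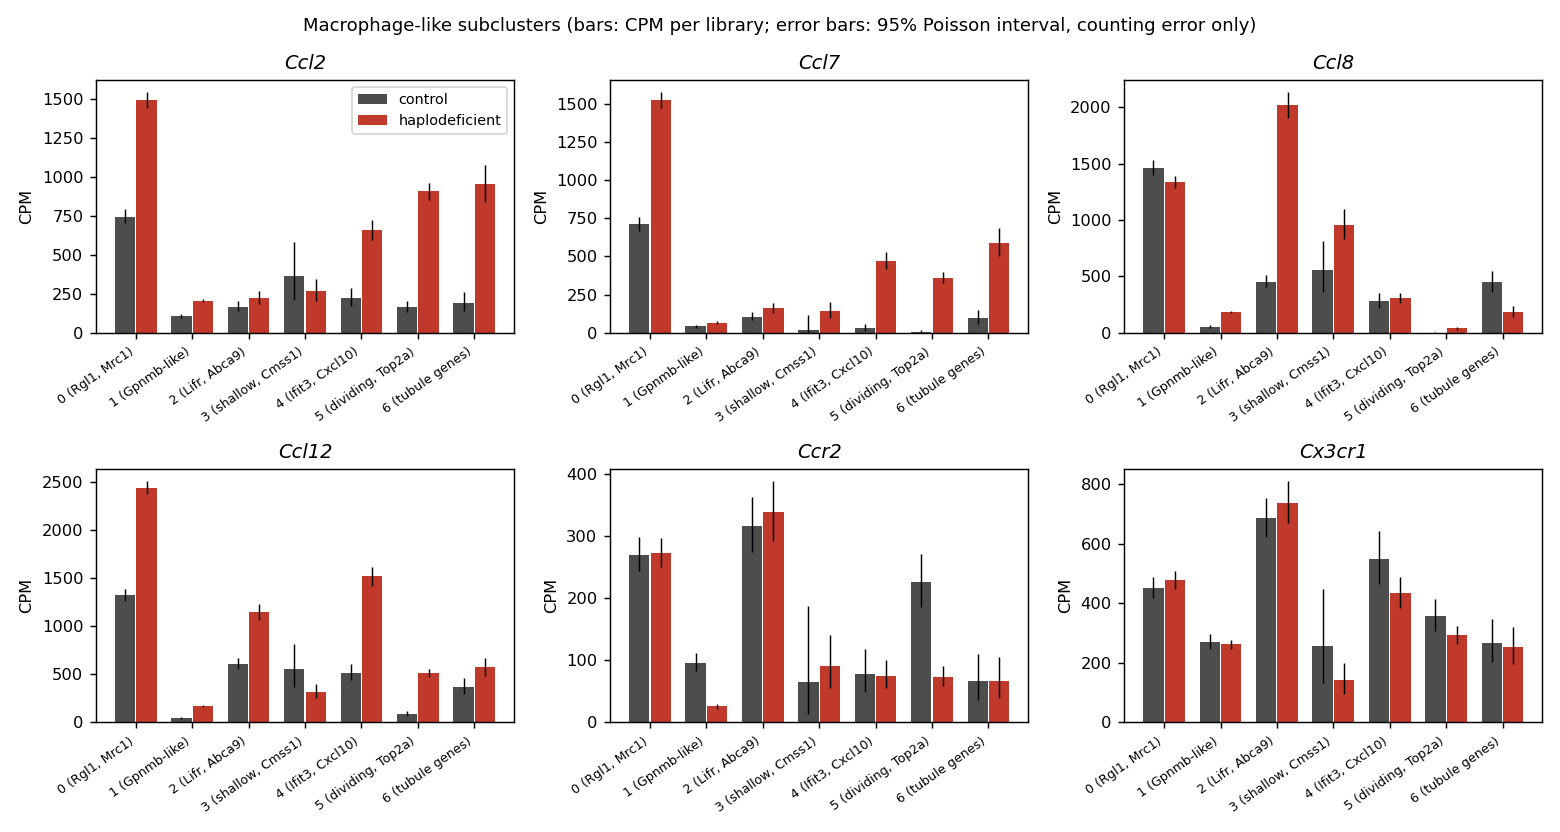
Level (y axis, CPM, from 0) of the 4 CC ligands, Ccr2 and Cx3cr1 in 7 macrophage-like subclusters (x axis, with leading genes) of the control (grey) and haplodeficient (red) libraries, with 95% Poisson error bars that cover counting error only. Ccl2, Ccl7 and Ccl12 are highest in haplodeficient subcluster 0, at 1489, 1523 and 2445 CPM, while Ccl8 is highest in haplodeficient subcluster 2, at 2018 CPM.

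Single macrophage-like cells often carried several ligands. At least 1 of the 4 was detected in 67.8% of control and 71.1% of haplodeficient macrophage-like cells, at least 2 in 43.0% and 48.0%, and all 4 in 7.02% and 9.97%. Of cells with Ccl7, 81.3% and 86.7% also had Ccl2, whereas Ccl7 was found in 51.6% and 50.9% of cells with Ccl2. Of cells with Ccl8, 64.0% and 70.3% also had Ccl12. The tenth of macrophage-like cells with the most UMIs of a ligand held 66.4% and 67.2% of Ccl2, 83.6% and 85.1% of Ccl7, 87.4% and 90.1% of Ccl8, and 61.2% and 65.2% of Ccl12. Detection of a pair depends on depth, which these cells share between genes.

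Ccr2 marks the cells that can follow CCL2, CCL7 and CCL12, and its highest class was the one named dendritic cell-like. It stood at 484 CPM (452 to 518, 858 UMIs) in control and 403 CPM (379 to 427, 1115 UMIs) in haplodeficient dendritic cell-like cells, a ratio of 0.832 (0.760 to 0.910). The direction changed under separate clustering of the libraries, with a log2 ratio of 0.08 in place of -0.26. The class also carried macrophage genes: the 10 macrophage markers summed to 4697 and 5271 CPM in it and the 11 dendritic cell markers to 1451 and 1102 CPM. Its highest Ccr2 was in 2 unnamed subclusters rich in those genes. One, led by Retnla and Lpl, held Ccr2 at 926 and 698 CPM and macrophage markers at 7479.9 CPM over both libraries. The other, led by Apoe and C1qc, held Ccr2 at 571 and 523 CPM and macrophage markers at 12661 CPM over both. Among subclusters with dendritic subtype names, Ccr2 was 430 and 299 CPM in the type 2-like and 238 and 203 CPM in the type 1-like one. The type 2-like control level thus exceeded those of macrophage-like subclusters 0 and 2, while the haplodeficient one stood among them. In the migratory-like subcluster 0 control and 1 haplodeficient UMI were counted. The share of thinned dendritic cell-like cells with Ccr2 was 35.9% and 30.7% (80.4% and 76.2% before thinning), against 0.107% of control and 0% of haplodeficient proximal tubule-like cells (0.302% and 0.552% before thinning), where 0 of 340 cells allows up to 0.882%. Median depth was 7860 and 8229 UMIs in dendritic cell-like and 10598 and 6352 UMIs in proximal tubule-like cells.

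Macrophage-like cells held Ccr2 at 186 CPM (900 UMIs) in the control and 105.9 CPM (1057 UMIs) in the haplodeficient library, a ratio of 0.570 (0.521 to 0.623). The difference lay mainly in certain subclusters: Ccr2 was 270 and 272 CPM in subcluster 0 and 316 and 338 CPM in subcluster 2, but 95.7 and 25.3 CPM in the Gpnmb-like subcluster (0.264, 0.208 to 0.334) and 225 and 72.8 CPM in the dividing subcluster 5. At the control makeup of subclusters the ratio of Ccr2 was 0.80. Of macrophage-like cells with Ccr2, 42.0% of control and 61.4% of haplodeficient cells also had Ccl2, beside 40.6% and 47.7% of all macrophage-like cells. The control share was close to that of the whole class.

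Monocyte-like cells gave the largest difference between libraries in Ccr2, resting on 20 control UMIs. Ccr2 stood at 85.2 CPM (52.0 to 132, 20 UMIs) in the control and 202 CPM (182 to 223, 374 UMIs) in the haplodeficient library, a ratio of 2.37 (1.51 to 3.92). The 20 control UMIs came from 5 cells and 15 of them from 1 cell, and without the highest cell of each library the log2 ratio was 2.89 in place of 1.2. In the classical-like subcluster Ccr2 was 776 CPM (460 to 1226) in 4 control cells and 695 CPM (619 to 778) in 71 haplodeficient cells. These intervals overlap, but 1 cell held 15 of the 20 control UMIs of the class. At equal subcluster makeup the log2 ratio was 0.18. Classical-like cells were 4 of 52 in the control and 71 of 374 in the haplodeficient library. With most control UMIs in 1 cell, the makeup of subclusters and the level per cell cannot be told apart here. Proximal tubule markers summed to 711 CPM in control and 8.09 CPM in haplodeficient monocyte-like cells, endothelial markers to 822 and 427 CPM, and neutrophil markers to 145 and 1312 CPM. The class includes a subcluster led by S100a9 and S100a8 with 0 control and 16 haplodeficient cells. The part of these in the result was not tested.

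Lymphocytes were the remaining Ccr2 carriers. In T cell-like cells Ccr2 stood at 208 CPM (118 UMIs) in the control and 139 CPM (446 UMIs) in the haplodeficient library (0.668, 0.544 to 0.826), and the log2 ratio of -0.56 was 0.27 with thinned cells and -1.85 with a UMI minimum set for each library. Macrophage markers summed to 269.8 and 42.1 CPM in these cells, and their part in the result was not tested. The gamma delta-like T cells were highest, at 391.9 and 381 CPM, the CD8-like cells stood at 289 and 121 CPM, and the CD4-like cells at 109 and 105 CPM. NK cell-like cells gave 241 CPM (17 UMIs) and 165 CPM (64 UMIs). Because T cell-like cells were more numerous in the haplodeficient library, they held 14.3% of its Ccr2 UMIs against 6.03% in the control.

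**Figure D4:**
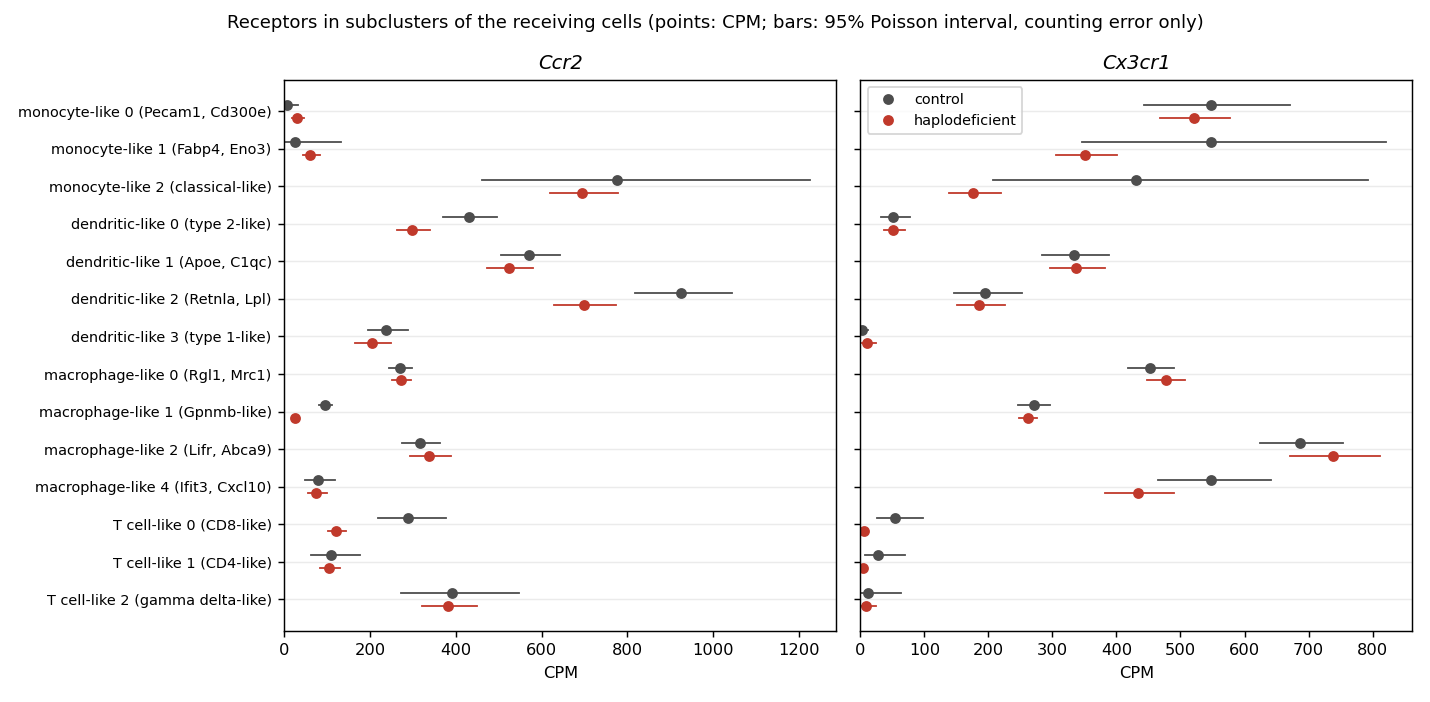
Level (x axis, CPM) of Ccr2 and Cx3cr1 in subclusters of monocyte-like, dendritic cell-like, macrophage-like and T cell-like cells (y axis) of the control (grey) and haplodeficient (red) libraries, with 95% Poisson intervals that cover counting error only. Ccr2 is high and Cx3cr1 low in classical-like monocytes of the haplodeficient library (695 and 176 CPM), and the reverse holds in the subcluster led by Pecam1 and Cd300e (29.9 and 521 CPM).

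Cx3cl1 was counted in vessels, stroma and tubule, and was near 0 in leukocytes. It stood at 112 CPM (98.8 to 126, 276 UMIs) in control and 127 CPM (118 to 137, 666 UMIs) in haplodeficient endothelial-like cells, a ratio of 1.14 (0.988 to 1.32) within counting error. Inside the endothelium it was concentrated in the glomerular-like subcluster, at 329 CPM (264 to 407) and 433 CPM (387 to 482), compared with 14.6 and 24.5 CPM in the capillary-like and 43.8 and 59.2 CPM in the vasa recta-like subcluster. Adam10 and Adam17, whose proteases cut CX3CL1, stood at 206 and 199 CPM and at 54.2 and 49.4 CPM in endothelial-like cells.

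Fibroblast-like cells carried Cx3cl1 at 128 CPM (79 UMIs) and 185 CPM (163 UMIs), a ratio of 1.44 (1.10 to 1.91). In the thick ascending limb-like class, its largest source by share (17.9% and 25.9% of Cx3cl1 UMIs), it was 84.3 and 88.1 CPM, a ratio of 1.05 whose direction changed under 7 of the alternative settings. In 3 further tubule classes Cx3cl1 was lower in the haplodeficient library: 70.3 and 45.4 CPM in principal or connecting tubule-like cells (0.646, 0.561 to 0.742), 65.9 and 50.9 CPM in descending thin limb-like cells (0.773) and 63.8 and 53.9 CPM in distal convoluted tubule-like cells (0.845). Cluster 2, led by Psca and Olfm4, held 14.8% and 12.8% of the UMIs at 88.4 and 67.9 CPM. The tubule classes with Cx3cl1 were thus level or lower in the haplodeficient library, and the endothelial-like and fibroblast-like classes level or higher.

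Cx3cr1 was highest in monocyte-like cells, at 537 CPM (126 UMIs) in the control and 372 CPM (691 UMIs) in the haplodeficient library, a ratio of 0.694 (0.573 to 0.846). In the subcluster led by Pecam1 and Cd300e, a marker of patrolling monocytes, the levels were 548 and 521 CPM. Classical-like cells stood at 431 and 176 CPM. Macrophage-like cells held most of the Cx3cr1 UMIs, 58.8% and 62.5%, at 403 CPM (1952 UMIs) and 345 CPM (3444 UMIs), a ratio of 0.856 (0.809 to 0.905). At equal subcluster makeup that ratio was 0.989, so the lower class average went with the makeup of subclusters. Gpnmb-like cells, a larger share in the haplodeficient library, held Cx3cr1 at 271 and 261 CPM. Thinned macrophage-like cells had Cx3cr1 in 32.5% and 28.6% of cells, against 0.107% and 0% of proximal tubule-like cells (71.8% and 65.0%, against 1.88% and 2.49%, before thinning).

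Other carriers of Cx3cr1 were minor. Dendritic cell-like cells gave 138 and 141 CPM, a ratio of 1.02, and endothelial-like cells 53.8 and 49.2 CPM, a ratio of 0.916. Both lie within counting error, but the dendritic log2 ratio of 0.03 was 2.05 under separate clustering of the libraries, and the endothelial one of -0.12 was 0.31 with predicted doublets kept. In neutrophil-like cells Cx3cr1 rested on 13 control UMIs (78.8 CPM) and 27 haplodeficient UMIs (23.0 CPM), a ratio of 0.292 (0.146 to 0.616), and without the highest cell of each library the log2 ratio was -0.48 in place of -1.58. Of macrophage-like cells with Ccr2, 78.0% and 75.0% also had Cx3cr1, compared with 46.1% and 48.0% of dendritic cell-like cells with Ccr2.

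A common measure was set across classes: a gene counted as different where it was past 2-fold with 5 CPM added to both levels. Only genes whose mean level reached 50 CPM, from 30 UMIs or more in all, were read. In the 14 named classes with at least 100 cells in each library, 24 pairs of one of the 7 genes and a class could be read. 2 pairs were past 2-fold higher in the haplodeficient library, Ccl2 in fibroblast-like and Ccl7 in injured tubule-like cells, and over all 46779 pairs of a gene and a class 0.891% were. 2 pairs were past 2-fold lower, Ccl2 in descending thin limb-like and Cx3cr1 in neutrophil-like cells, against 1.19% of all pairs. Within single classes the background was 0.878% higher in fibroblast-like cells, 0.457% higher in injured tubule-like cells, 0.998% lower in descending thin limb-like cells and 3.9% lower in neutrophil-like cells. In macrophage-like cells 0 of 6 readable genes of the 7 were past 2-fold in either direction, beside 0.324% of all genes higher and 0.648% lower. Each of the 4 pairs past 2-fold rested on few cells, as given above, whereas the macrophage-like averages rest on more UMIs and were under 2-fold as summed. At the control makeup of subclusters the macrophage-like ratios of Ccl2, Ccl7 and Ccl12 were above 2, as given above. Those ratios have no added CPM, and the share of all genes past 2-fold at that makeup was not computed, so they have no background. Over the alternative settings the macrophage-like log2 ratio of Ccl12 reached at most 0.89.

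**Figure D5:**
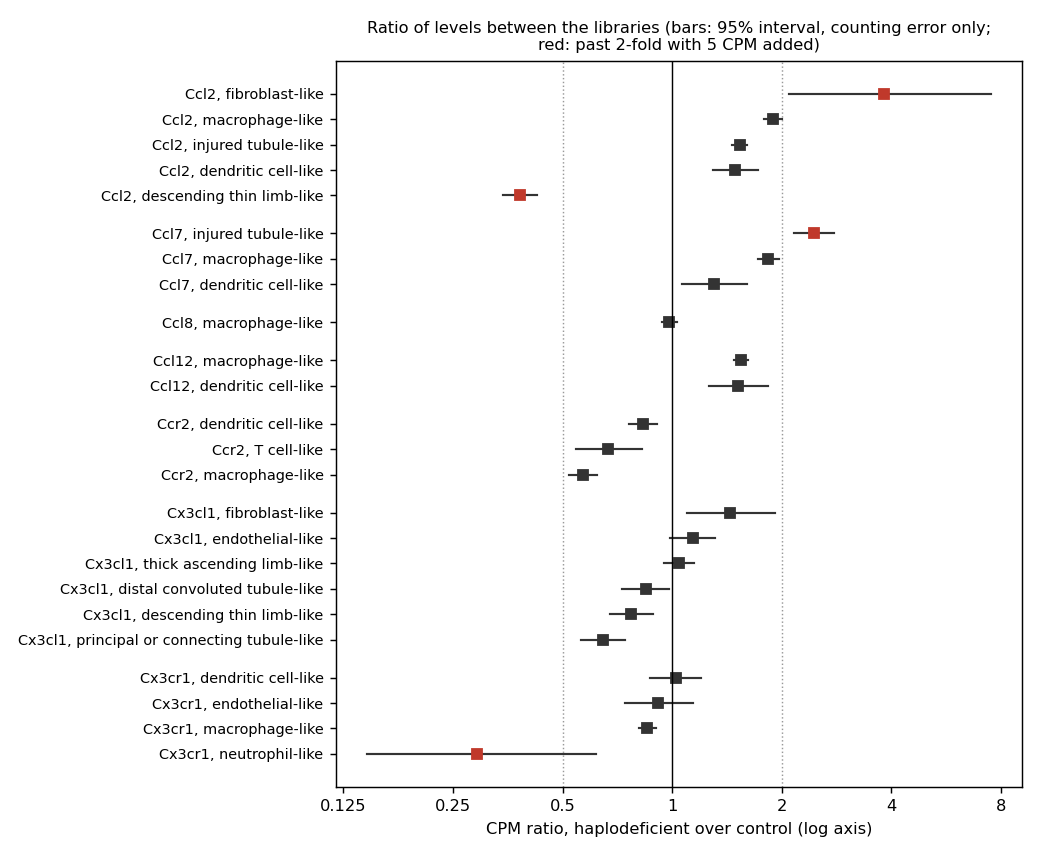
Ratio of CPM, haplodeficient over control (x axis, log axis), for the 24 pairs of gene and cell class (y axis) that could be read, with 95% intervals that cover counting error only. Red squares mark the 4 pairs past 2-fold with 5 CPM added, 2 higher and 2 lower, and Ccl2 in macrophage-like cells lies at 1.89.

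Over all kept cells the 7 genes were 1.2 to 3.5 times higher in the haplodeficient library, with Ccl12 at 27.4 and 96.1 CPM and Ccl7 at 17.2 and 58.9 CPM the most different. With the control makeup of cell classes held fixed the ratios of the 3 genes higher in macrophage-like cells were 1.93 for Ccl7, 1.60 for Ccl12 and 1.504 for Ccl2 (3.43, 3.50 and 1.93 unadjusted). The other 4 were below 1, at 0.984 for Ccl8, 0.865 for Cx3cl1, 0.845 for Cx3cr1 and 0.738 for Ccr2. The higher whole-library level of both receptors therefore went with the makeup of cell classes. That of Ccl2, Ccl7 and Ccl12 went with both makeup and levels. The makeup covers proximal tubule-like cells, with 33.7% of control and 3.62% of haplodeficient UMIs, as well as leukocytes.

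Other genes of the pathways were read in macrophage-like cells, beside a median log2 ratio of -0.01 over all readable genes. Ccr1, a receptor that CCL7 can also bind, stood at 76.3 and 51.6 CPM, and Ccrl2, which binds chemerin, at 477 and 360 CPM. Of the genes that induce the ligands 14 of 18 were readable with a median of -0.01 and 7 above 0. Tnf, a cytokine that induces Ccl2, was 135 and 220 CPM, Nfkbia, the NF-kB inhibitor that NF-kB itself induces, 577 and 937 CPM, and Il1b 1387 and 1171 CPM. Of the ligand handling and signalling genes 10 of 12 were readable with a median of 0.00. Of macrophage maturation genes 8 of 8 were readable, 6 of them above 0, with a median of 0.33, Gpnmb at 654 and 1161 CPM and Mrc1 at 562 and 317 CPM. Genes of dissociation stress, a state that can induce chemokines during tissue digestion, had a median of 0.01 over 10 of 11 readable genes. Of these 5 were above 0, and single genes went both ways, with Atf3 at 981 and 1356 CPM and Hspa1a at 98.2 and 55.4 CPM. In endothelial-like cells the inducers had a median of -0.06 over 13 of 18.

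The genes whose pattern across cell classes was most like that of each of the 7 were ranked by Pearson correlation of log2(CPM + 5) over 30 points, 15 classes in each of 2 libraries, among 10036 genes. The points share the libraries and their depth, and each class is counted once in either library, so the values are descriptions. Ccl2 was most like Ccl7 (0.86) and Pdlim4 (0.84), and Ccl7 most like Arhgap22 (0.93) and Zmynd15 (0.92). Ccl8 was most like Ms4a7 (0.94), a membrane protein gene of macrophages, and Ccl12 most like the complement receptor gene C3ar1 (0.97). Ccr2 was most like Runx3 and Cd48 (0.96 each), genes of lymphocytes and phagocytes. Cx3cl1 was most like Ephb4 (0.91), and Cx3cr1 most like Arhgap17 (0.94) and Clec4a3 (0.91). Ccl2 had the loosest of these best matches, and it was also the gene shared between macrophage-like and injured tubule-like cells.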

How the data were processed

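2 droplet single-cell RNA libraries of kidney were analysed, 1 control and 1 haplodeficient. Per the file headers, the deposited values are counts, whole UMIs per gene and barcode, written by Cell Ranger 4 for all barcodes. The build is mm10, per the submitters' processing notes. Kept barcodes had no fewer than 500 UMIs and 200 detected genes and no more than 50% mitochondrial UMIs, and Scrublet doublets (0.8% for each 1000 cells: 715 and 804) were removed. Cells were clustered with scanpy 1.11.5 and leidenalg 0.10.2 (2000 variable genes without the 7 genes and their listed pathway genes, 30 components, resolution 1, subclusters 0.5). A cluster was named where at least 3 listed markers led it. UMIs were summed per class and library and given as CPM with exact Poisson intervals, conditional binomial intervals for ratios and Clopper-Pearson intervals for shares. These cover counting error only. Log2 ratios have 5 CPM added. The interval steps were checked on simulated data. Every one of the 7 genes is reported in its main classes, other genes only from the lists or the 5 most similar patterns. Subclusters and genes used as examples were picked after their values were seen. 1 listed gene, and the list summaries that need it, are not reported here. The members and lists were chosen with earlier results of these data known. Ensembl IDs matched GENCODE for 99.6% of 32285 genes. 16 alternative settings were tried, 3 of them chosen after seeing the data.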

Additional observations from a re-analysis of the deposited data

Results flagged for a closer look

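Ccl2 differed in direction between cell classes under the same comparison of haplodeficient with control. Its log2 ratio was 0.91 in macrophage-like, 0.61 in injured tubule-like, 0.56 in dendritic cell-like and 1.71 in fibroblast-like cells, and -1.32 in descending thin limb-like cells. The fibroblast-like and descending thin limb-like values rest on few cells with Ccl2. Their sign also changed, to -0.52 with predicted doublets kept and to 0.38 with thinned cells, so this difference in direction depends on the processing. Cx3cl1 likewise had a log2 ratio of 0.51 in fibroblast-like cells and of -0.34 in descending thin limb-like, -0.22 in distal convoluted tubule-like and -0.58 in principal or connecting tubule-like cells. With 1 library per genotype, these differences between classes were not tested.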

How the results depend on the processing

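No paired analysis was possible because each genotype has 1 library. Ccl2 and Cx3cr1 in macrophage-like cells, Ccr2 in monocyte-like cells and Cx3cl1 in endothelial-like cells were counted apart from the other pairs. For 23 other pairs of a gene and a class, 301 values under 16 alternative settings gave 242 close to the reported ratio. The sign differed in 24 values, from 10 pairs, of which 2 concern pairs past 2-fold: Ccl2 in descending thin limb-like cells to 0.38 with thinned cells, and Ccl2 in fibroblast-like cells to -0.52 with doublets kept. The log2 ratio of Ccl2 in macrophage-like cells (0.91) was 0.76 with doublets kept, 0.75 with a UMI minimum set for each library, and 1.11 at equal cluster weights. Ccr2 in monocyte-like cells (1.2) was 0.23 with doublets kept, 2.96 with separate clustering, 0.18 at equal subcluster weights and 2.89 without the highest cell. Cx3cr1 in macrophage-like cells (-0.22) was -0.12 with thinned cells and -0.028 at equal subcluster weights. Cx3cl1 in endothelial-like cells (0.18) ranged from -0.011 to 0.29, so its sign was not the same under every setting. Ccl2 over all cells (0.90) was 0.84 with doublets kept, 0.65 at a mitochondrial limit of 25%, 0.76 with each library's UMI minimum, 0.67 with median-of-ratios scaling, 1.09 with thinned cells and 0.76 at equal cluster weights. The control share of Ccl2 in macrophage-like cells (22.9%) was 25.6% with doublets kept, 16.8% with its own UMI minimum, 27.05% with separate clustering, 25.1% with a class from each cell alone, 26.4% with the 7 genes in the clustering, 23.9% after subtracting free RNA and 53.5% with thinned cells. The haplodeficient share (53.2%) was 43.8%, 58.8%, 55.5%, 57.1%, 54.9% and 72.1% under the same settings from the UMI minimum on, and 51.9% without subclusters 3 and 6. The causes of these shifts were not tested. The count of 0 members past 2-fold in macrophage-like cells was also 0 at a mean of at least 10 CPM, but Ccl2 passed a log2 ratio of 1 at equal cluster weights (1.11), and Ccl7 with thinned cells (1.07), at equal cluster weights (1.205) and at equal subcluster weights (1.18). Classes with few cells limit depth most: the 52 control monocyte-like cells gave 20 Ccr2 UMIs.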

Other observations

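Csf1, the growth factor of macrophages and a listed survival gene, was below the level set for a readable ratio in macrophage-like cells but was counted 51 times in the control (10.5 CPM) and 714 times in the haplodeficient library (71.5 CPM). Its receptor gene Csf1r stood at 581 and 464 CPM there, and in endothelial-like cells Csf1 was 62.7 and 41.4 CPM. Ly6c2, the surface marker gene of classical monocytes, had 16 of 234852 UMIs in control and 463 of 1855202 UMIs in haplodeficient monocyte-like cells. Classical-like cells were 4 of 52 and 71 of 374 of these cells.

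Ccl2 was also counted in neutrophil-like cells, with 0 UMIs in 103 control cells (interval to 22.3 CPM) and 44 in 615 haplodeficient cells (37.5 CPM, 27.2 to 50.3), and in monocyte-like cells, at 12.8 CPM (2.63 to 37.3) and 58.8 CPM (48.2 to 70.9). The 44 neutrophil-like UMIs came from 11 cells, and the 3 highest cells held 61.4% of them. Dendritic cell-like cells led by Apoe and C1qc, genes shared with macrophages, held Ccl2 at 488 and 663 CPM and Ccl12 at 337 and 532 CPM.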
